A study of Mus musculus with 3 samples.

Results

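The genes Sox9, Sox5 and Sox6 were followed over 3 sections of mouse embryonic axial skeleton, and their rows were found by symbol: 3 of 3 members, with 1 row each, among 32285 listed genes. The sections were profiled with Visium, in which RNA from a frozen section is captured on barcoded spots that are 55 µm across and 100 µm apart, so that 1 spot can hold several cells of different types. The study took 1 section at each of 3 embryonic days (E), with 1561 (E11.5), 1014 (E12.5) and 1360 (E13.5) spots of at least 1000 UMIs (unique molecular identifiers, which count captured RNA molecules). Where 3 values stand together they run from E11.5 over E12.5 to E13.5. The labels name no strain, genotype or treatment and give the tissue as bone. With 1 section at each stage, stage, embryo and section cannot be told apart. The tissue on the slides was wider than bone: liver genes (Afp, Alb, Apoa1, Apoa2 and Ahsg) summed to 5804 CPM (UMIs of a gene or list for each 1000000 UMIs of the spots) in the 79 spots highest for them at E11.5, and heart genes to 14609 CPM in the 68 spots highest for them at E13.5.

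Sox9, Sox5 and Sox6 encode transcription factors that bind DNA through an HMG box and are together known as the Sox trio of cartilage. Sox9 carries a transactivation domain, is needed for mesenchymal cells to become chondrocytes, and acts on enhancers of cartilage matrix genes such as Col2a1 and Acan. Sox5 and Sox6 are close relatives that lack such a domain, bind as dimers, and strengthen the action of Sox9. All 3 also have roles outside cartilage: Sox9 and Sox6 in neural progenitors, Sox9 and Sox5 in neural crest derivatives, and Sox5 and Sox6 in the notochord sheath, which fails to form in mouse embryos that lack both.

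Sox9 (ENSMUSG00000000567) lies on GRCm38.p6 chromosome 11 from 112782210 to 112787757, and no other RefSeq gene overlaps it. Sox5 (ENSMUSG00000041540) spans 143828425 to 144782287 of chromosome 6 and Sox6 (ENSMUSG00000051910) spans 115470872 to 116040776 of chromosome 7. Both of these long genes hold antisense or opposite genes that the files list separately. Sox5os3 and Sox5os4, within Sox5, had 0 UMIs, and Sox6os, within Sox6, had 109 UMIs over the 3 sections. Whether counting used the strand is not given in the sources used here, so part of the Sox6 count could belong to Sox6os.

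Because the trio binds short HMG-box sequences, the bases before the gene starts were searched for AACAAT and ACAAAG on both strands, counting matches that overlap another match. The 250 bases upstream of RefSeq gene starts (GRCm38.p6) matched 2 of the 3 members, with 1 start of Sox5 and 6 of Sox6. The 1 Sox5 window and the 6 Sox6 windows all lay at internal starts, inside the gene spans given above, so none lay before the whole gene. The Sox5 window held neither motif. Of the 6 Sox6 windows, 5 held ACAAAG and 1 of these also held AACAAT. Among all 32851 windows, 16.5% held ACAAAG, 9.42% held AACAAT and 24.0% held either. Of 17 windows of 14 cartilage matrix genes, 3 (17.6%) held either motif, namely 2 of Epyc and 1 of Hapln3. The Sox5 window (chr6:143947107-143947356, minus strand), the Sox6 window with the most matches (chr7:115824711-115824960, minus strand) and the matrix gene window with the most matches (chr10:97646853-97647102, plus strand) are printed from 5′ to 3′, with matches on either strand in capitals. A match describes letters only and is neither a bound site nor a cause.
Sox5: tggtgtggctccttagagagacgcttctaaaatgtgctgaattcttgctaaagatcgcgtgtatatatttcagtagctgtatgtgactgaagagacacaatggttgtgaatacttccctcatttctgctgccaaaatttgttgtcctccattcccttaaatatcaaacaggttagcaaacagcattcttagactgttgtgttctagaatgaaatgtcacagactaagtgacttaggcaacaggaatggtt
Sox6: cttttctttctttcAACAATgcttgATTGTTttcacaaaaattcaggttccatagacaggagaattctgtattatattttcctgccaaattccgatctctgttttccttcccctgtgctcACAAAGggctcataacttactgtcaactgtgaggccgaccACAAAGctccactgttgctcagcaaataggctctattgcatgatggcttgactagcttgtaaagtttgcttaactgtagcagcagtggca
Epyc: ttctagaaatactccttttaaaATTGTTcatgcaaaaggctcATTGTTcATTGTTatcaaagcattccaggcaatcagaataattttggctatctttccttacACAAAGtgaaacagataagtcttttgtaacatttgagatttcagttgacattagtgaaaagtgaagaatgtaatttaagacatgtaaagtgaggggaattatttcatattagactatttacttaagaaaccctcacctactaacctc

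Over all spots, each of the 3 genes was highest in the E12.5 section. Sox9 measured 51.0, 87.5 and 48.2 CPM, from 2261, 2230 and 1386 UMIs. Sox5 measured 8.34, 18 and 7.44 CPM, from 370, 460 and 214 UMIs. Sox6 measured 9.96, 18 and 12 CPM, from 442, 458 and 344 UMIs. With 1 section a stage there is no test of stage, and the intervals given throughout (95%; exact Poisson for a level, exact binomial for a share or a ratio) cover counting error only. Single spots held few of these molecules: no spot had more than 21 UMIs of Sox9, 6 of Sox5 or 7 of Sox6. A Sox9 UMI was found in 58.2%, 66.1% and 52.7% of spots at the 3 stages, a Sox5 UMI in 18.9%, 31.5% and 13.6%, and a Sox6 UMI in 22%, 30.5% and 21.5%.

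To set tissues side by side, the spots of each section were put into 4 classes that do not overlap. Col2a1-high spots were the top 10% of a section by Col2a1, the main collagen of cartilage. T-high spots had at least 1 UMI of T (Brachyury, the defining notochord gene) and lay in the top 3% by it, with priority over the other classes. Neural-high spots were the top 10% by the mean log level of 11 neural genes, 6 of them neuron genes (Tubb3, Stmn2, Elavl3, Elavl4, Nefm, Nefl) and 5 progenitor genes (Sox1, Sox2, Pax6, Hes5, Msi1). Col2a1-high spots numbered 139, 78 and 117 over the stages, T-high spots 47, 31 and 41, neural-high spots 156, 102 and 132, and other spots 1219, 803 and 1067, while 3 spots at E13.5 that were both Col2a1-high and neural-high were left out. The Col2a1 level that bounded the class was 13.1, 40.6 and 199.9 UMIs per 10000 at the 3 stages, so the class is a range within a section and not a fixed amount of collagen. Depth differed between the classes: at E13.5 the median spot held 5380 UMIs in Col2a1-high, 4549 in T-high and 22181 in neural-high spots, against 22731 in other spots, while at E11.5 and E12.5 the class medians lay between 19719 and 34877.

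Sox9, Sox5 and Sox6 were all higher in Col2a1-high spots than in other spots, in 3 of 3 sections. Sox9 measured 199, 380 and 255 CPM in Col2a1-high spots over the 3 stages, against 41.8, 67.4 and 40.2 CPM in other spots. The lowest Col2a1-high section lay well above the highest section of other spots, and the section ratios were 4.77, 5.64 and 6.34. The spots of each class were added up within a section, and the 12 resulting libraries were compared with edgeR's quasi-likelihood test, with the section as a block and Benjamini-Hochberg adjustment over 13794 genes. In that fit Sox9 rose in Col2a1-high spots with a log2 fold change of 2.38 ± 0.26 (SE, adjusted p = 0.00175). The call applied to 3 of 3 members, where 1.01% of all genes tested were called higher in Col2a1-high spots.

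Sox5 measured 26.2, 74.9 and 34.0 CPM in Col2a1-high spots, against 6.65, 13.4 and 6.64 CPM in other spots, and rose with a log2 fold change of 2.20 ± 0.32 (SE, edgeR adjusted p = 0.00715). Sox6 measured 24.0, 57.1 and 43.1 CPM in Col2a1-high spots, against 9.21, 14.4 and 10.7 CPM in other spots, and rose with a log2 fold change of 1.70 ± 0.30 (SE, edgeR adjusted p = 0.0163). For both genes the Col2a1-high sections lay above all sections of other spots, by 3.95 to 5.61 times for Sox5 and 2.60 to 4.02 times for Sox6 within a section. The class held a minority of each gene's molecules, though more than its share of 7.04%, 6.18% and 3.07% of all UMIs. Of all Sox9 UMIs of a section, 27.6%, 26.9% and 16.2% were in Col2a1-high spots at E11.5, then E12.5, then E13.5, and 64.8%, 59.7% and 71.7% were in other spots. Sox5 had 22.2%, 25.7% and 14.0% of its UMIs in Col2a1-high spots. For Sox6 these shares were 17.0%, 19.7% and 11% in Col2a1-high spots, against 73.1%, 62.2% and 77.0% in other spots.

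These calls rested on the E12.5 section. Without it, the edgeR adjusted p in Col2a1-high spots was 0.124 for Sox9, 0.208 for Sox5 and 0.325 for Sox6, with log2 fold changes of 2.31, 2.04 and 1.56, and 10 genes in all were still called higher. The p-values measure spread over sections that differ in stage, not over embryos of 1 stage, and a fit without the section as a block called none of the 3 genes against other spots. Col2a1-high spots also held more of the sclerotome list (Pax1, Pax9, Nkx3-2, Foxc2), the genes of the somite part that forms vertebrae: 4 of 4 genes were detected at E11.5 and E12.5 and 3 of 4 at E13.5, summing to 396, 944 and 638 CPM in Col2a1-high spots, against 54.7, 196 and 152 CPM in other spots. Their part in the result was not tested. In any such spot, fewer cells of a type and less RNA per cell cannot be told apart.

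**Figure D1:**
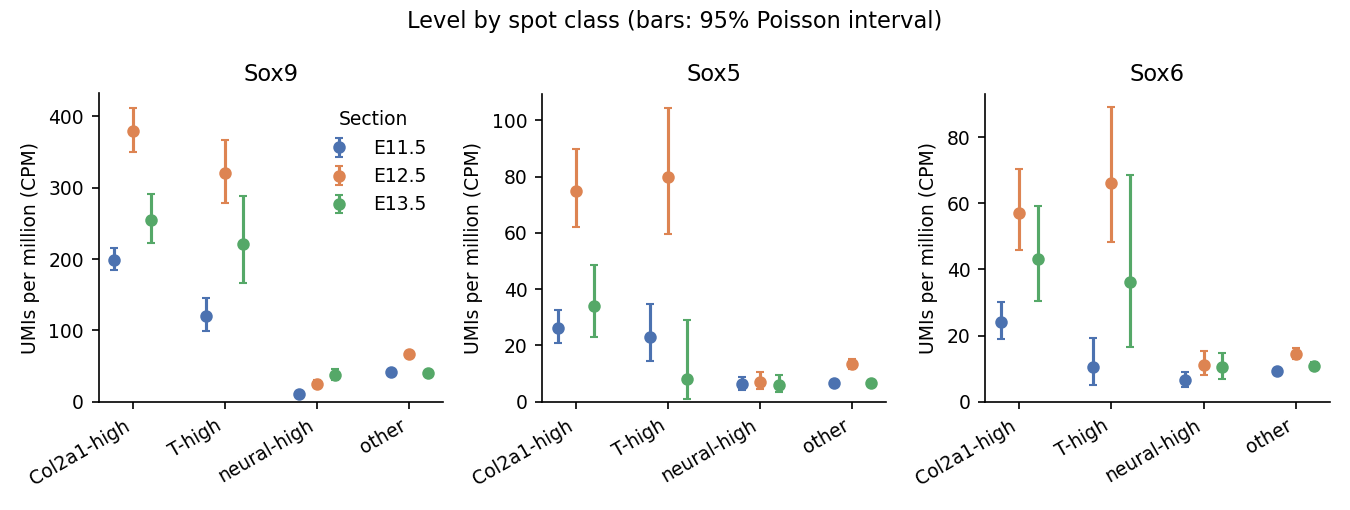
Levels of Sox9, Sox5 and Sox6 in CPM (linear axes) in Col2a1-high, T-high, neural-high and other spots; each point is 1 section, coloured by stage, and bars are 95% Poisson intervals. Col2a1-high points lie above the points of other spots in all 3 sections for each gene, and Sox9 in Col2a1-high spots peaks at 380 CPM at E12.5.

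In T-high spots Sox9 and Sox5 were higher than in other spots, while Sox6 did not pass the test. Sox9 measured 121, 321 and 221 CPM in T-high spots in the 3 sections, against 41.8, 67.4 and 40.2 CPM in other spots. It rose in 3 of 3 sections with a log2 fold change of 1.99 ± 0.27 (SE, edgeR adjusted p = 0.00768). Sox5 measured 22.9, 79.8 and 8.04 CPM in T-high spots, against 6.65, 13.4 and 6.64 CPM in other spots. Its log2 fold change was 1.93 ± 0.36 (SE, edgeR adjusted p = 0.0370), but the E13.5 value is 2 UMIs, with an interval of 0.97 to 29.0 CPM. Sox6 measured 10.4, 66.3 and 36.2 CPM in T-high spots, against 9.21, 14.4 and 10.7 CPM in other spots, a log2 fold change of 1.43 ± 0.35 (SE, edgeR adjusted p = 0.118; range 0.0131 to 1.00 over 13 alternatives). At E11.5 Sox6 in T-high spots lay within counting error of other spots, at 1.13 times (interval 0.54 to 2.11), and at E12.5 it was 4.59 times higher. So 2 of 3 members were called in T-high spots, where 0.529% of all genes tested were called higher. Without the E12.5 section the adjusted p was 0.345 for Sox9 and 1.00 for Sox5. Without the E11.5 section Sox5 lost its call (0.110) and Sox6 gained one (0.0228).

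T-high and Col2a1-high spots did not differ past the test in any of the 3 genes. The log2 fold change of T-high over Col2a1-high spots was -0.39 for Sox9 (95% interval -0.97 to 0.19), -0.27 for Sox5 (-1.06 to 0.53) and -0.27 for Sox6 (-1.04 to 0.51), with edgeR adjusted p between 0.931 and 0.991. No member was called or had an unadjusted p under 0.05 in edgeR as reported (Sox9 had 0.0314 with the top 5% of spots and 0.0241 without the E13.5 section, at adjusted p of 0.853 and 0.649), in a comparison that called 0.0217% of all genes in either direction, and the intervals leave room for lower as well as higher levels. DESeq2 called none of the 3 either. Within the E11.5 section, where T was lowest, T-high spots held 0.606 times the Sox9 of Col2a1-high spots (interval 0.493 to 0.740) and 0.434 times the Sox6 (0.200 to 0.843), and at E12.5 these ratios were 0.844 (0.718 to 0.988) and 1.16 (0.790 to 1.68). Sox9 was lower in T-high spots in 3 of 3 sections, at 0.867 times at E13.5 (0.633 to 1.17). Sox5 in T-high spots was 0.873, 1.07 and 0.236 times its Col2a1-high level, the last from 2 UMIs (0.027 to 0.932). The 2 classes share tissue: 18, 24 and 16 of the T-high spots over the 3 stages also lay in the top 10% by Col2a1. In those shared spots Sox9 measured 214, 438 and 290 CPM, against 68.5, 66.7 and 198 CPM in the 29, 7 and 25 T-high spots outside the Col2a1 range. At E11.5 and E12.5 the intervals of these Sox9 levels did not overlap (168 to 268 against 49.3 to 92.6 CPM at E11.5), and at E13.5 they did. Other spots held 41.8, 67.4 and 40.2 CPM of Sox9. The T-high spots outside the Col2a1 range lay above other spots at E11.5 and E13.5. At E12.5 they did not (66.7 CPM, interval 36.4 to 112, 14 UMIs). Sox5 was likewise higher in the shared spots at E11.5 and E12.5, with 49.1 and 104 CPM, against 8.15 and 28.6 CPM in the remaining T-high spots. Other spots held 6.65 and 13.4 CPM of Sox5 at these stages. Sox6 measured 94.7 CPM in the shared spots at E12.5, against 4.76 CPM, or 1 UMI, outside them.

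Other notochord genes sat in different parts of the T-high class at different stages. At E11.5 and E12.5 the shared spots held 257 and 449 CPM of Shh, the hedgehog ligand of notochord and floor plate, 170 and 317 CPM of the notochord keratin Krt8, and 271 and 474 CPM of T. The T-high spots outside the Col2a1 range held 16.3 and 33.3 CPM of Shh, 31.0 and 33.3 CPM of Krt8, and 66.8 and 80.9 CPM of T at these stages. At E13.5 the shared spots held 0 UMIs of Shh, 499.9 CPM of Krt8 and 629 CPM of T, and the spots outside the Col2a1 range held 139 CPM of Shh, 1371 CPM of Krt8 and 1671 CPM of T. Foxa2, which marks notochord and floor plate, had between 0 and 3 UMIs in each of these 6 sets of spots. Beside these notochord genes, the E13.5 spots outside the Col2a1 range held 1 UMI of Sox5 (5.36 CPM, interval 0.14 to 29.8). They held 5 UMIs of Sox6 (26.8 CPM, interval 8.69 to 62.5). The levels of other spots at E13.5, 6.64 CPM for Sox5 and 10.7 CPM for Sox6, lay within these wide intervals. Over all T-high spots at E11.5, T summed to 135 UMIs in 47 spots, and the lowest count that placed a spot in the class was 1 UMI. With at least 2 UMIs of T asked of each spot, an alternative chosen after seeing the data that left 22, 30 and 33 spots, Sox6 passed the test in T-high spots (log2 fold change 1.56, edgeR adjusted p = 0.0376).

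In neural-high spots Sox9 was lower than in other spots, while Sox5 and Sox6 did not pass the test. Sox9 measured 11.1, 24.6 and 37.7 CPM in neural-high spots at E11.5, then E12.5, then E13.5, against 41.8, 67.4 and 40.2 CPM in other spots, and fell by 1.21 on the log2 scale (SE 0.27, edgeR adjusted p = 0.00906). The gap was narrowest at E13.5: neural-high spots held 0.266, 0.365 and 0.938 times the Sox9 of other spots, and the last interval (0.762 to 1.14) spans 1. The make-up of the class also differed between sections. Its Col2a1 measured 99.8, 222 and 1750 CPM, against 274, 638 and 1523 CPM in other spots. At E13.5 its Sox10 measured 60.6 CPM, against 16.6 CPM in other spots. The part of this make-up in the Sox9 ratios was not tested. Sox5 measured 6.32, 7.16 and 5.88 CPM in neural-high spots, against 6.65, 13.4 and 6.64 CPM in other spots (log2 fold change -0.44, edgeR adjusted p = 0.361). Sox6 measured 6.52, 11.2 and 10.4 CPM in neural-high spots, against 9.21, 14.4 and 10.7 CPM in other spots (log2 fold change -0.41, edgeR adjusted p = 0.358). Thus 1 of 3 members was called lower, beside 12.4% of all genes. The Sox9 call was lost without the E11.5 section (adjusted p = 0.190) and without the E12.5 section (0.207).

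Against Col2a1-high spots, neural-high spots were lower in all 3 genes, each in 3 of 3 sections. The log2 fold change was -3.59 ± 0.29 for Sox9, -2.64 ± 0.36 for Sox5 and -2.10 ± 0.33 for Sox6 (SE), with edgeR adjusted p = 6.93e-05, 0.000543 and 0.00103. All 3 members were called, where 15.9% of all genes were called lower, and these calls held under each of the 13 alternatives, with an adjusted p of at most 0.0415. Sox9 in neural-high spots was 0.056, 0.065 and 0.148 times its level in Col2a1-high spots in the 3 sections.

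The neural-high class was led by neuron genes, and a different pattern appeared once its gene list was split. The 6 neuron genes summed to 7928, 7737 and 3143 CPM in neural-high spots, against 831, 802 and 91.2 CPM in other spots, while the 5 progenitor genes summed to 129, 177 and 28.4 CPM in neural-high spots, against 139, 97.2 and 11.1 CPM in other spots. Spots in the top 5% by the progenitor genes alone were therefore set beside spots in the top 5% by the neuron genes, as a description with no test. At E11.5 Sox9 measured 121 CPM in the 79 progenitor-list spots, against 7.90 CPM in the 79 neuron-list spots, a ratio of 15.3 (interval 9.73 to 25.2). At E12.5 it measured 105 CPM in the 51 progenitor-list spots, against 13.7 CPM in the 51 neuron-list spots, a ratio of 7.66 (4.94 to 12.3).

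Sox6 was split likewise. Sox6 measured 42.6 CPM in progenitor-list spots at E11.5, against 7.54 CPM in neuron-list spots, and 57.1 CPM at E12.5, against 9.34 CPM. In Col2a1-high spots Sox6 stood at 24.0 and 57.1 CPM at these stages, and in all spots in the top 10% by Col2a1, T-high ones included, at 23.6 and 65.5 CPM. Sox5 measured 12.8 CPM in progenitor-list spots at E11.5, against 6.46 CPM in neuron-list spots, and 11.8 CPM at E12.5, against 4.94 CPM, and both ratios had intervals that span 1. Median depth differed, with 11516 UMIs in progenitor-list spots against 35443 UMIs in neuron-list spots at E11.5, and 20849 against 33769 UMIs at E12.5; its part in the ratios was not tested. None of the progenitor-list spots at E11.5 or E12.5 was in the Col2a1 range.

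At E13.5 the progenitor list went against its name. The spots in its top 5% held 0 UMIs of Sox1 and of Pax6, 11 of Hes5 and 61 of Sox2, after 11 spots shared with the neuron list had been left out. They held 43 UMIs of Nkx2-1, a gene of forebrain, thyroid and lung, and 3545 CPM of Col2a1. They are called by their list only. Sox9 measured 56.4 CPM there, against 29.6 CPM in neuron-list spots, Sox5 20.5 against 4.93 CPM, and Sox6 10.3 against 5.63 CPM.

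**Figure D2:**
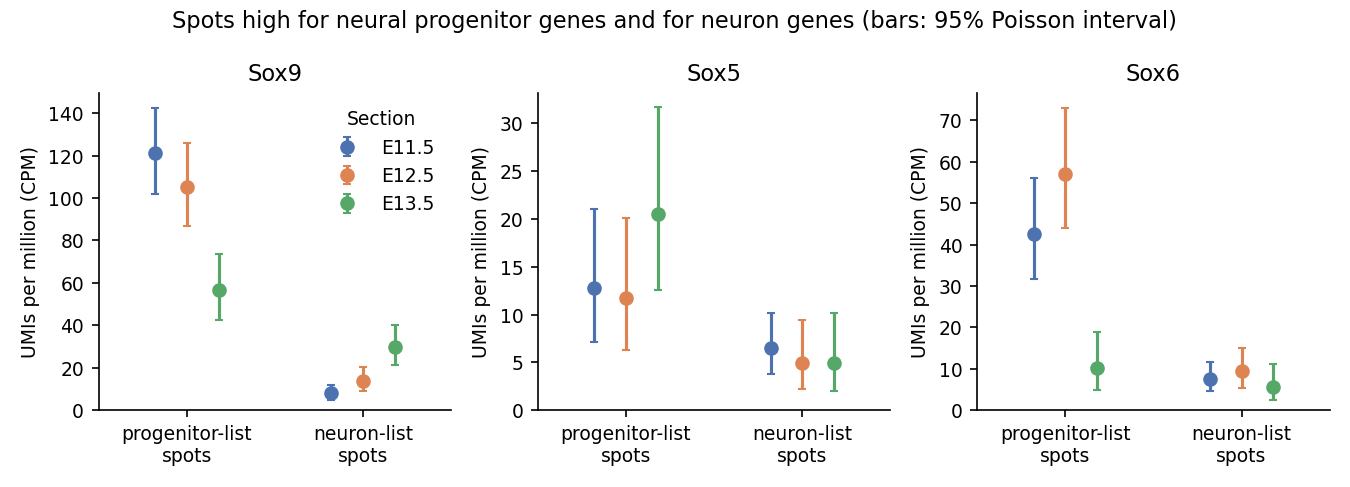
Levels of Sox9, Sox5 and Sox6 in CPM (linear axes) in spots in the top 5% by neural progenitor genes (left) and by neuron genes (right); each point is 1 section, coloured by stage, with its 95% Poisson interval. Sox9 and Sox6 in progenitor-list spots lie far above neuron-list spots at E11.5 and E12.5, for example 121 against 7.90 CPM for Sox9 at E11.5.

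Other tissues were placed by lists of 4 to 6 marker genes, taking the top 5% of spots of each section by each list, and set beside the T-high class and all spots in the top 10% by Col2a1. These sets can share spots. Sox9 was highest in the Col2a1 set (201, 393 and 256 CPM over the 3 stages), then in the sclerotome set (191, 283 and 206 CPM) and the T-high class. The sclerotome set is not a separate tissue here: 66 of its 79, 32 of its 51 and 25 of its 68 spots were also in the Col2a1 set. The tendon set (Scx, Tnmd, Fmod, Kera, Mkx) followed at 107, 164 and 80.2 CPM, and of its spots 30, 16 and 9 were also Col2a1-high. Neighbours in this order were not separated, since the ranges over the 3 sections overlapped at each step for Sox9. By the mean log level over the sections, which sets this order, skeletal muscle (34.9, 22.2 and 15.8 CPM) and neurons (7.90, 13.7 and 31.9 CPM) came last. Within single sections the order differed: at E11.5 liver (9.58 CPM), crest and Schwann cells (23.4 CPM) and endothelium (33.1 CPM) lay below skeletal muscle, and at E13.5 heart (23.5 CPM) lay below neurons.

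Sox5 kept the same first 4 sets, with the neural crest and Schwann cell set next at 13.5, 22.6 and 16.3 CPM, and then the progenitor set. Between the progenitor set, whose lowest section was 11.8 CPM, and the endothelium set, whose highest was 8.28 CPM, the Sox5 ranges over sections did not overlap. The intervals of these 2 levels did overlap, at 6.27 to 20.1 CPM (13 UMIs) against 5.06 to 12.8 CPM (20 UMIs). The liver set, placed below endothelium, reached 18.7 CPM of Sox5 at E12.5, within the progenitor range. Sox6 placed the progenitor set second, at 42.6, 57.1 and 15.3 CPM, behind the Col2a1 set, at 23.6, 65.5 and 45.9 CPM, and these ranges overlapped. That order takes in the E13.5 progenitor set, which went against its name. At E11.5 the progenitor set lay above the Col2a1 set. In the crest and Schwann set Sox6 stood at 4.36, 16.3 and 9.07 CPM. The liver list marked no liver at E12.5: its 5 genes had 87 UMIs in all in the set, 9 of the 51 spots were Col2a1-high, and Sox9 was 109 CPM there. In the liver sets of E11.5 and E13.5 Sox9 was 9.58 and 33.3 CPM.

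**Figure D3:**
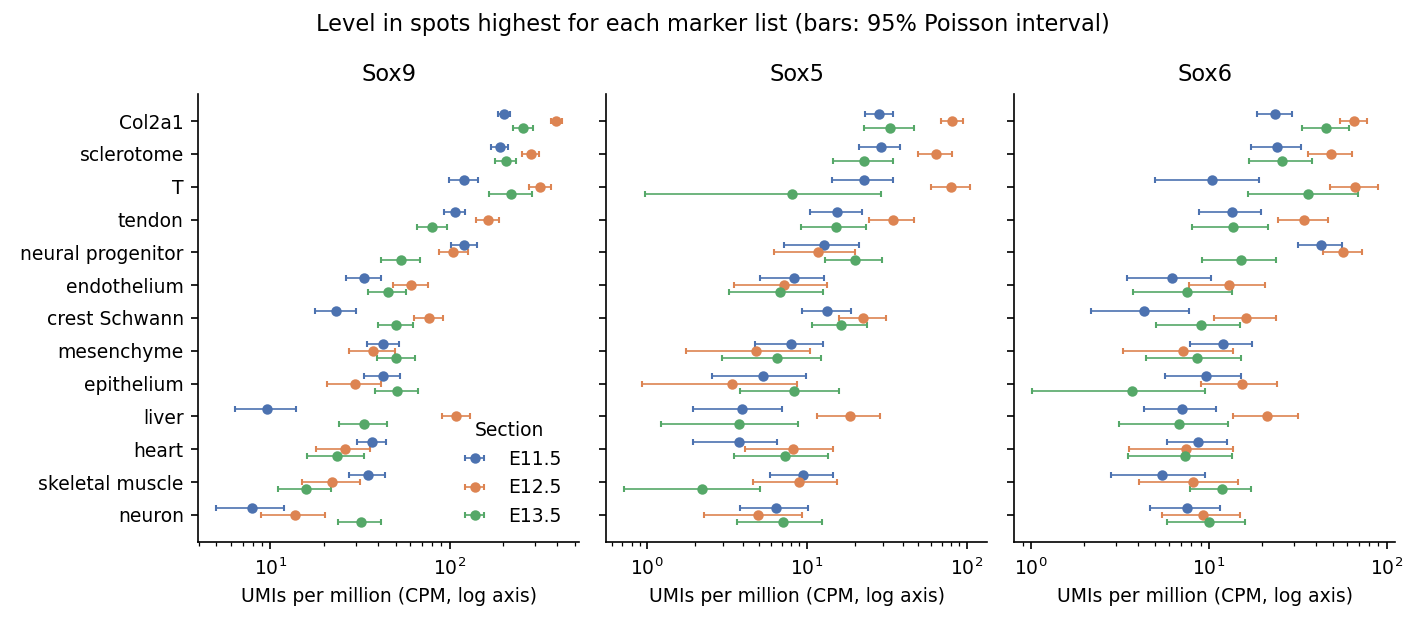
Levels of Sox9, Sox5 and Sox6 (CPM, log axes) in the spots highest for each marker list, ordered by the mean log level of Sox9; each point is 1 section, coloured by stage, with its 95% Poisson interval. By the mean log level over sections the Col2a1, sclerotome and T sets head Sox9 and Sox5. This order does not hold in each section: Sox5 in the T set at E13.5 is 8.04 CPM (2 UMIs), below the tendon set (15.1 CPM). For Sox6 the neural progenitor set at E11.5 (42.6 CPM) lies above the Col2a1 set (23.6 CPM).

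The share of spots with a UMI was compared at 1 depth, by drawing 3000 UMIs from each spot and leaving out shallower ones (28 of 117 Col2a1-high spots and 12 of 41 T-high spots at E13.5). A Sox9 UMI was then found in 43.9%, 67.9% and 48.3% of Col2a1-high spots at E11.5, then E12.5, then E13.5, against 11.2%, 17.6% and 13.2% of other spots. Without thinning the shares were 97.8%, 100% and 72.6% in Col2a1-high spots, against 57.2%, 64.1% and 50.4% in other spots. The skeletal muscle set, which should lack Sox9, had a UMI in 8.86%, 5.88% and 1.47% of its thinned spots (7, 0 and 0 of its spots were also Col2a1-high), with a median depth before thinning of 27048 UMIs at E11.5, against 21592 in Col2a1-high spots. Sox5 was found in 5.04%, 16.7% and 11.2% of thinned Col2a1-high spots, against 1.89%, 3.66% and 2.96% of other spots. Sox6 was found in 4.32%, 24.4% and 11.2% of thinned Col2a1-high spots, against 3.38%, 3.66% and 2.77% of other spots. At E11.5 the Sox6 share in Col2a1-high spots (interval 1.60% to 9.16%) could not be separated from that in other spots at this depth.

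To relate the trio to the matrix that it is known to act on, each spot was scored by the mean log level of 18 cartilage matrix genes, Col2a1 among them, and the spots of a section were split into deciles of the score. Sox9 climbed over the upper deciles. It measured 199, 382 and 277 CPM in the top decile in the 3 sections, against 24.9, 32.3 and 20.7 CPM in the lower 5 deciles, ratios of 8.0, 11.8 and 13.4. The eighth decile already stood at 62.6, 100.2 and 101 CPM and the ninth at 82.1, 172 and 195 CPM. Sox5 measured 28.8, 81.2 and 29.6 CPM in the top decile, against 5.15, 7.09 and 3.75 CPM in the lower 5 deciles, ratios of 5.60, 11.46 and 7.90.

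Sox6 differed in shape from Sox9, with a flat level through most of the range. At E11.5 it lay between 6.12 and 10.5 CPM in each of the lower 9 deciles and at 25.3 CPM in the top one. At E12.5 it lay between 9.90 and 15.1 CPM in the lower 8 deciles, then at 28.2 CPM in the ninth and 69.4 CPM in the top one. At E13.5 it climbed over the eighth, ninth and top deciles, at 14.8, 28.4 and 44.5 CPM. The shape was not particular to Sox6. Sox5 at E11.5 lay between 3.38 and 9.14 CPM in the lower 8 deciles and at 28.8 CPM in the top one. At E13.5 Sox5 measured 13.2, 27.1 and 29.6 CPM in the eighth, ninth and top deciles. At E12.5 Sox5 climbed sooner, to 19.4 CPM in the eighth decile, against 10.6 CPM for Sox6. The Sox6 ratio of the top decile to the lower 5 was 2.65, 5.70 and 4.83 at the 3 stages. After thinning each spot to 3000 UMIs, the Sox6 ratio at E11.5 was 1.46, with an interval of 0.53 to 3.50. The top decile at E13.5 had a median of 4744 UMIs, against 24717 UMIs in the lowest decile, and the part of depth in the ratios was not tested beyond that thinning.

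**Figure D4:**
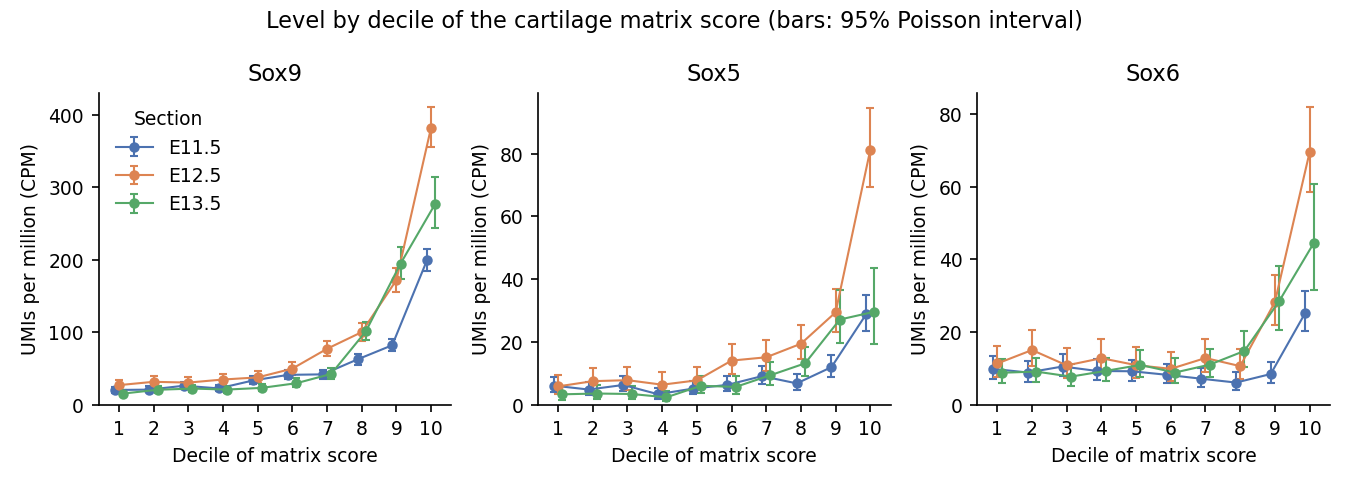
Levels of Sox9, Sox5 and Sox6 in CPM (linear axes) by decile of the cartilage matrix score within each section, coloured by stage, with 95% Poisson intervals. Sox9 climbs from about the seventh decile to 382 CPM at E12.5, while Sox6 stays flat until the eighth to top decile.

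Across single spots the Pearson correlation of Sox9 with the matrix score was 0.59, 0.73 and 0.62 over the 3 stages (1561, 1014 and 1360 spots that share a section and its depth differences, so no p is given). It was 0.32, 0.62 and 0.22 for Sox5 and 0.14, 0.41 and 0.22 for Sox6, both in sparse counts. In spots thinned to 3000 UMIs it was 0.31, 0.45 and 0.45 for Sox9, 0.079, 0.31 and 0.11 for Sox5, and 0.0017, 0.28 and 0.13 for Sox6, so that the values of Sox5 and Sox6 rested mostly on the E12.5 section. Sox9 itself was lower in deeper spots at E13.5, with r = -0.46 against the log of a spot's UMIs. Between members, Sox9 and Sox5 correlated at 0.27, 0.51 and 0.15, Sox9 and Sox6 at 0.25, 0.39 and 0.14, and Sox5 and Sox6 at 0.10, 0.30 and 0.05. Thinned values were at most 0.165, for Sox9 and Sox6 at E12.5, too weak in counts this sparse to read further.

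The genes most like each member were ranked by the mean correlation over the 3 sections, among 6888 genes for Sox9 and 6889 for the other 2 members, each with at least 500 UMIs in every section. For Sox9 they were Col2a1 (mean r 0.64), Col9a3 (0.62), Wwp2 (0.61), Col9a2 (0.60), Col9a1 (0.60), Col11a1 (0.51), Pax1 (0.42) and Cspg4 (0.41). The collagens II, IX and XI build the cartilage fibril, and Wwp2 is a ubiquitin ligase whose gene hosts miR-140. For Sox5 the list held 7 of the same 8 genes, with Sox9 itself (0.31) in place of Pax1, led by Col9a3 (0.36) and Col2a1 (0.36). For Sox6 the first was Fgfr3 (0.28), the FGF receptor of proliferating chondrocytes that is also made by neural progenitors, followed by Col9a3 (0.27), Wwp2 (0.27), Sox9 (0.26) and Col2a1 (0.25), with Fgfr2 (0.19) eighth.

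Within Col2a1-high spots each of the trio read highest at E12.5, while most matrix genes read highest at E13.5. Sox9 stood at 1.91 times its E11.5 level at E12.5 (interval 1.70 to 2.14), Sox5 at 2.85 times (2.14 to 3.83) and Sox6 at 2.38 times (1.73 to 3.28). Among genes with at least 50 UMIs over both sections, 2 of 3 members were thus at least 2-fold higher, beside 3.93% of all genes. At E13.5 Sox9 stood at 0.671 times its E12.5 level (0.573 to 0.783), Sox5 at 0.454 times (0.293 to 0.683) and Sox6 at 0.754 times (0.502 to 1.11). One member, Sox5, was at least 2-fold lower, beside 8.56% of all genes. From E11.5 to E13.5 none of the 3 was 2-fold higher, beside 10.9% of all genes. The ratio was 1.28 for Sox9 (1.09 to 1.49), 1.30 for Sox5 (0.82 to 1.99) and 1.79 for Sox6 (1.18 to 2.69).

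Over the same sections the matrix climbed at each step. Col2a1, which chose the spots, stood at 2775 CPM in Col2a1-high spots at E11.5, 8400 CPM at E12.5 and 31797 CPM at E13.5. Of the 16 other matrix genes with enough UMIs, 16 were at least 2-fold higher at E13.5 than at E11.5, by 43.3 times in the median. Col9a1 was 8.14 times higher, Col9a3 22.1 times, Acan, the core protein of the large proteoglycan, 47.6 times, and Col11a2 103.8 times. The remaining gene, Hapln3, had 1 UMI at E13.5 and 11 UMIs at E11.5. From E12.5 to E13.5, 15 of 16 were at least 2-fold higher, beside 7.37% of all genes, by 4.60 times in the median, and the exception, Epyc, was 1.26 times higher. The 18 matrix genes together made up 4186 CPM of Col2a1-high spots at E11.5, 16086 CPM at E12.5 and 60970 CPM at E13.5, which lowers the CPM of any other gene there by a like part of the total. No difference between the stage courses was tested, since each stage is 1 section.

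**Figure D5:**
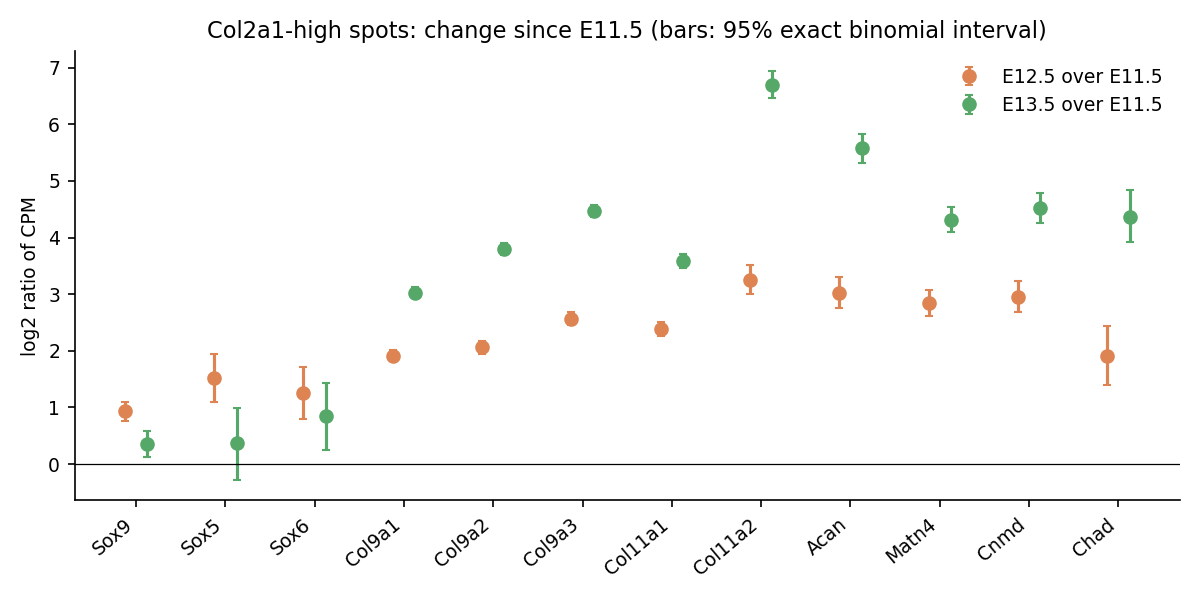
Change since E11.5 in Col2a1-high spots, as the log2 ratio of CPM, for Sox9, Sox5, Sox6 and 9 cartilage matrix genes at E12.5 and E13.5; each point is a ratio of 2 sections with its 95% exact binomial interval. The E13.5 points of the 3 Sox genes lie below their E12.5 points, while the E13.5 points of the matrix genes lie above theirs, up to Col11a2.

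Over all spots the 3 genes also read highest at E12.5. At that stage Sox5 stood at 2.16 times its E11.5 level, 1 of 3 members to reach 2-fold beside 6.47% of all genes, with Sox9 at 1.72 times and Sox6 at 1.80 times. At E13.5 Sox5 stood at 0.412 times its E12.5 level, 1 of 3 members at least 2-fold lower beside 8.06% of all genes, with Sox9 at 0.551 times and Sox6 at 0.666 times. From E11.5 to E13.5 the ratio over all spots was 0.946 for Sox9 (0.884 to 1.01), 0.892 for Sox5 (0.751 to 1.06) and 1.2 for Sox6 (1.04 to 1.39). The Sox9 and Sox5 intervals span 1, so these counts fix no direction for them. In Col2a1-high spots the same ratio was 1.28 for Sox9 (1.09 to 1.49) and 1.30 for Sox5 (0.82 to 1.99). Globin transcripts made up 5.44%, 1.40% and 0.780% of the UMIs at E11.5, then E12.5, then E13.5.

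Of the 18 cartilage matrix genes themselves, 16 rose in Col2a1-high spots, beside 1.01% of all genes called higher there. The median log2 fold change of the list was 3.58, against -0.02 over all genes tested. The 16 include Col2a1, which chose the class. Hapln1 (2.44, edgeR adjusted p = 0.120) and Hapln3 (1.56, 0.135) did not pass. In T-high spots 11 of 18 rose, beside 0.529% of all genes called higher there. Among the 11 were Acan (log2 fold change 4.51, edgeR adjusted p = 0.000226) and Snorc, a chondrocyte membrane proteoglycan (5.05, 0.00126). Of 15 tested regulators of cartilage other than the trio, 3 rose in Col2a1-high spots, beside the same 1.01% of all genes. These were Wwp2 (log2 fold change 3.60), the sclerotome factor Pax1 (2.89) and the zinc finger repressor Trps1 (1.40). Wwp2 (3.47) and Trps1 (1.37) also rose in T-high spots, beside 0.529% of all genes. In neural-high against other spots 1 of the 15 rose, Runx3, which acts in sensory neurons as well as in cartilage, beside 14.0% of all genes, and 4 fell, namely Barx2, Mef2c, Nfib and Trps1, beside 12.4% of all genes.

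The rest of the Sox family was read from the same fits. Of 14 tested members of the family outside the trio, edgeR called 0 in Col2a1-high or in T-high spots against other spots, beside 1.01% and 0.529% of all genes called higher, so a count of 0 among 14 genes is no result about the family. The median log2 fold change of the list in Col2a1-high spots was -1.14, against -0.02 over all genes, and no difference from the trio was tested. At an unadjusted p under 0.05 edgeR marked 6 and 0 of the 14 in these comparisons, in either direction. Of all 13794 genes tested it marked 2602 and 1486. DESeq2 called 1 of the 14 lower and 0. In neural-high spots 2 of 14 rose against other spots, Sox11 (1.12) and Sox14 (3.20), which act in neurons. That share is near the 14.0% of all genes called higher there. Against Col2a1-high spots 6 of 14 rose in neural-high spots, beside 17.8% of all genes: Sox1, Sox2, Sox10, Sox11, Sox13 and Sox14. Sox1 and Sox2 are among the genes that chose the neural-high spots. Sox13 is the third gene of the group that holds Sox5 and Sox6, and its log2 fold change of neural-high over Col2a1-high spots was 1.18, where Sox5 had -2.64 and Sox6 -2.10.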

How the data were processed

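Per the file headers and the submitters' processing notes, the deposited matrices hold raw UMI counts of each gene in each spot; the authors used Space Ranger 1.2.0, STAR and the mm10 genome, and no source used here gives the annotation release or the strand setting. Each of the 3 sections has its own matrix, and its stage was read from its title. Sections were 10 µm thick. Spots under 1000 UMIs were left out (2 at E11.5, 0 at E12.5, 5 at E13.5); the sections held 44359910, 25490744 and 28754555 UMIs. Barcodes mark array positions, so the sections share 434 to 704 of them. Of 32285 gene IDs, 32158 were in the reference table.

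Levels (CPM) are UMIs for each 1000000 UMIs of the summed spots. Spot scores and correlations used log2(UMIs per 10000 + 1). The 12 class sums were tested with edgeR 4.0.16 (filterByExpr, TMM, glmQLFit, glmQLFTest; adjusted p under 0.05), with the section as block because the classes of 1 section come from 1 tissue. DESeq2 1.42.0 was an alternative. Classes are ranges of a score, not cell types, and no doublet caller applies to spots. Stage ratios count as changed from 2-fold with at least 50 UMIs. The text names the members, genes of the matrix, regulator, Sox family and marker lists, and the 8 genes most like each member; members and lists were chosen with earlier results of these data known. Steps were tested on simulated data. Computing used Python 3.11.15, numpy 2.4.6, scipy 1.17.1, pandas 2.3.3, matplotlib 3.10.9 and R 4.3.3. Promoter sequences are from RefSeq, build GRCm38.p6. Spot positions and images were not used here.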

Additional observations from a re-analysis of the deposited data

How the results depend on the processing

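Neural-high against Col2a1-high spots kept its calls for all 3 genes under the 13 alternatives, with edgeR or DESeq2. The Sox6 difference of T-high from Col2a1-high spots, called in none, reversed sign to 0.061 (log2 fold change) without the E11.5 section, and ranged from -0.72 to 0.061 as 1 section at a time was left out. Leaving out 1 section at a time gave log2 fold changes of 2.28 to 2.55 (Sox9), 2.04 to 2.40 (Sox5) and 1.56 to 1.97 (Sox6) in Col2a1-high against other spots, 1.82 to 2.35, 1.32 to 2.16 and 0.84 to 2.03 in T-high against other spots, and -1.72 to -0.78 for Sox9 in neural-high against other spots; the cause of the lost calls was not tested beyond there being fewer sections.

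Without the section as replicate block, no member passed against other spots: the log2 fold change was 2.41 for Sox9, 2.27 for Sox5 and 1.77 for Sox6 in Col2a1-high spots (edgeR adjusted p = 0.348, 0.562 and 0.564), 2.08 for Sox9 and 2.05 for Sox5 in T-high spots (0.412 and 0.878), and -1.13 for Sox9 in neural-high spots (0.150). Counts of genes without the block were 0 higher and 0 lower in Col2a1-high and in T-high spots, 375 and 103 in neural-high spots, 0 and 0 for T-high against Col2a1-high spots, and 1044 and 589 for neural-high against Col2a1-high spots, with 919, 609, 2775, 397 and 3968 genes at an unadjusted p under 0.05. The stage numbers pair nothing further, since each stage is 1 section.

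With the top 20% of spots (6% for T), Sox6 in Col2a1-high spots was 1.39 (edgeR adjusted p = 0.136), Sox9 and Sox5 in T-high spots 1.84 (0.0602) and 1.70 (0.129), and Sox9 in neural-high spots -0.50 (0.231). With Acan choosing the cartilage class, Sox6 was 1.51 (0.0710) there and Sox5 1.84 (0.0871) in T-high spots. With the top 5% (1.5% for T), Sox5 in T-high spots was 2.22 (0.0772). Sox6 in T-high spots passed with DESeq2 at 1.44 (0.0131), with at least 2 UMIs of T at 1.56 (0.0376) and without the E11.5 section at 2.03 (0.0228).

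Genes called higher and lower over the whole table moved by more than 1.5 times in places. In Col2a1-high spots they were 139 and 223 as reported, 320 and 514 with DESeq2, 37 and 26 with the top 20%, 54 and 23 with Acan, with 502 lower without a filter on low counts and 335 lower in spots of at least 5000 UMIs. In T-high spots they were 73 and 37 as reported, 159 and 90 with DESeq2, 110 and 96 without the filter, 26 and 0 with the top 20%, with 58 lower for the top 5% and 18 lower with Acan. For T-high against Col2a1-high spots they were 3 and 0 as reported, 31 and 1 with DESeq2, 13 higher without the filter and 1 higher with Acan. Leaving out a section gave 10 to 289 higher and 2 to 485 lower in Col2a1-high spots, 9 to 107 and 0 to 52 in T-high spots, 464 to 3133 and 117 to 3255 in neural-high spots, 0 to 4 higher for T-high against Col2a1-high spots, and 636 to 3226 and 177 to 3111 for neural-high against Col2a1-high spots.

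With DESeq2 size factors in place of totals, the log2 ratio over all spots of E12.5 to E11.5 was 0.58 for Sox9 and 0.65 for Sox6 (0.78 and 0.85 as reported), and of E13.5 to E11.5 it was -0.21 for Sox9 (-0.08). Thinned to 3000 UMIs, the log2 ratio of the top to the lower 5 deciles was 2.75 for Sox9 and 0.55 for Sox6 at E11.5, 2.99 for Sox9 and 3.06 for Sox6 at E12.5, and 1.99 for Sox5 at E13.5. Thinned mean correlations with the matrix score were 0.40 for Sox9, 0.17 for Sox5 and 0.14 for Sox6. Depth limits the low genes most: 1 UMI was worth 4.02 CPM in T-high spots at E13.5.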

Other observations

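Col10a1, the collagen of hypertrophic chondrocytes, was found in 27 spots at E13.5 and in 0 at E11.5 and E12.5, and these spots were chosen after their values were seen. They held 195 UMIs of Col10a1 and 149 UMIs of the bone sialoprotein gene Ibsp. Sox9 measured 43.9 CPM (26 UMIs, interval 28.7 to 64.4) in the Col10a1-positive spots, against 258 CPM (225 to 295) in the 116 Col2a1-high spots without Col10a1. Sox5 had 4 UMIs and Sox6 7 UMIs in the Col10a1-positive spots, or 6.76 and 11.8 CPM, against 34.9 and 43.0 CPM in Col2a1-high spots without Col10a1. Col2a1 itself was 2414 CPM in Col10a1-positive spots, against 31933 CPM in Col2a1-high spots without Col10a1, and the median depth was 20810 against 5302 UMIs. The other spots of E13.5 held 40.2 CPM of Sox9, 6.64 CPM of Sox5 and 10.7 CPM of Sox6, near the levels of the Col10a1-positive spots. Of 117 Col2a1-high spots at E13.5, 116 had no Col10a1, so nearly all Col10a1-positive spots lay outside the Col2a1-high class. With 1 section there is no test, and the part of depth and of mixed tissue in these spots was not tested.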
